A study of Homo sapiens with 12 samples.

Results

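The 45 genes described here encode the machinery that copies DNA in S phase, with the enzymes that supply its nucleotides and the regulators that admit cells to S phase. They were chosen by symbol from a list of names, and all 45 were found among the 25528 rows of a table of TPM, a length-scaled transcript abundance whose total is the same in every library. The libraries are all from HT-29 cells, a colon adenocarcinoma cell line whose label gives its genotype as APC mutant. In the GFP and CTNNB1 groups, lentivirus delivered an open reading frame for GFP (the control) or for CTNNB1, which encodes beta-catenin, and RNA was taken 2 days after infection. In the shNT1 and shAPC groups, lentivirus delivered the control hairpin shNT1 or a hairpin against APC, and the hairpin was induced with doxycycline at 2 µM for 1 day. With 3 libraries in each of 4 groups, the study asked what stronger WNT signalling does to gene expression in these cells. The labels name neither the promoter of the constructs nor the number of hairpins against APC, and they do not say whether the replicates were separate infections, so p-values measure only the spread between these libraries.

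DNA replication starts at origins, where the origin recognition complex, CDC6 and CDT1 load the ring of MCM2 to MCM7 in G1, a step called licensing. At the start of S phase CDC45 and the GINS complex join the ring to form the active helicase, and DNA polymerases alpha, delta and epsilon copy the strands behind it. The sliding clamp PCNA, loaded by replication factor C, holds the polymerases on DNA. Most of these genes are transcribed periodically under E2F factors, and in the gut epithelium they are active in the dividing cells of the crypt, where WNT signalling is high.

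APC averaged 16.4 ± 0.80 TPM with the control hairpin and 5.99 ± 0.56 TPM with shAPC (SD, n = 3 each; log2 fold change -1.32, SE 0.08, limma adjusted p = 6.1e-06). CTNNB1 itself averaged 146 ± 2.9 TPM with GFP and 160 ± 4.2 TPM with its own reading frame (SD, n = 3 each), and was not called (log2 fold change 0.13, SE 0.04, limma adjusted p = 0.059; called means an adjusted p under 0.05). Of 10 colon epithelial markers 7 averaged at least 1 TPM, while CDX1, CDX2 and CDH17 stayed under 1 TPM in every library. Of 10 markers of immune, stromal, endothelial, liver and muscle cells 9 stayed under 1 TPM, and their summed level without CD68 was between 0.412 and 1.54 TPM. CD68, a lysosomal protein used as a macrophage marker, ran from 6.06 to 27.4 TPM, and with it the list summed to 27.1 to 28.0 TPM in GFP, 13.0 to 14.6 TPM in CTNNB1, 14 to 15.8 TPM in shNT1 and 7.15 to 9.39 TPM in shAPC, while CD3E and ALB were at 0. The colon markers summed to between 11000 and 11100 TPM in GFP, 12300 and 12400 TPM in CTNNB1, 9260 and 10800 TPM in shNT1 and 8900 and 9810 TPM in shAPC. The part of these marker levels in the results was not tested. TPM keeps no read depth, so the depth is unknown; the libraries detected 14756 to 16186 genes each. The arms differ in vector, collection day and doxycycline, which cannot be told apart from a difference between GFP and shNT1.

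The replication genes as a set took a small share of the transcripts, lowest in shAPC. They made up 0.462 ± 0.0040% of the TPM in GFP, 0.489 ± 0.0074% in CTNNB1, 0.451 ± 0.025% in shNT1 and 0.396 ± 0.011% in shAPC (SD, n = 3 each). The mean log2(TPM + 1) over the 45 genes was 6.081, 6.086 and 6.128 in the GFP libraries and 6.194, 6.165 and 6.193 in the CTNNB1 libraries. It was 6.044, 6.016 and 6.138 in the shNT1 libraries and 5.943, 5.891 and 5.874 in the shAPC libraries. The shAPC libraries were thus the lowest and the CTNNB1 libraries the highest of the 12, with no overlap inside either arm. With median-ratio scaling, which divides each library by its median ratio to the average library, the GFP libraries (6.122, 6.133 and 6.141) and the CTNNB1 libraries (6.124, 6.146 and 6.19) overlapped. The shNT1 libraries (6.033, 6.007 and 6.071) stayed above the shAPC libraries (5.915, 5.916 and 5.928) under that scaling. Library shNT1 3 stood above the other shNT1 libraries. It was the highest of its group for 33 of the 45 genes and had the fewest detected genes of all libraries (14756). These bulk values cannot tell fewer cells in S phase from less of each transcript per cell.

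**Figure D1:**
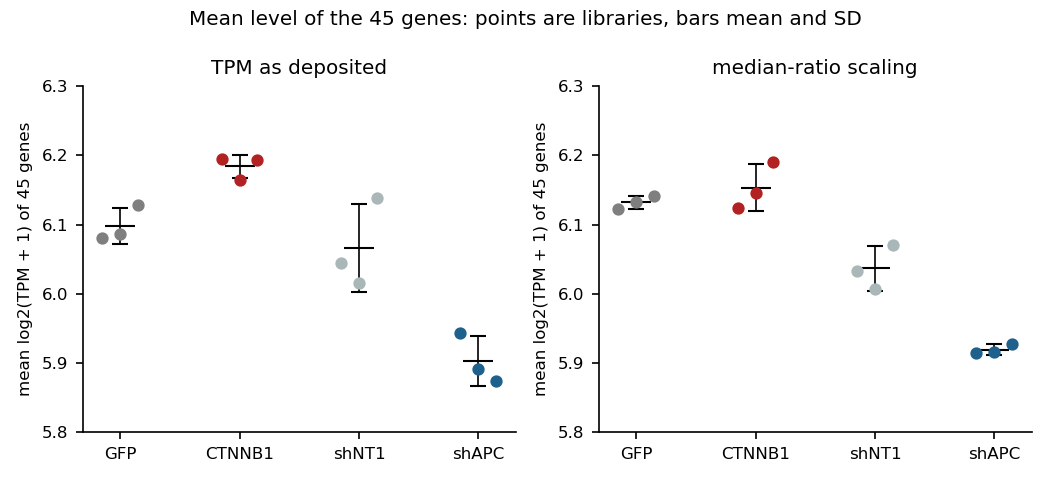
Mean log2(TPM + 1) of the 45 genes in each library (points) with the group mean and SD (bars), for TPM as deposited on the left and with median-ratio scaling on the right. The shAPC libraries lie below the shNT1 libraries in both panels, while GFP and CTNNB1 overlap only on the right.

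**Figure D2:**
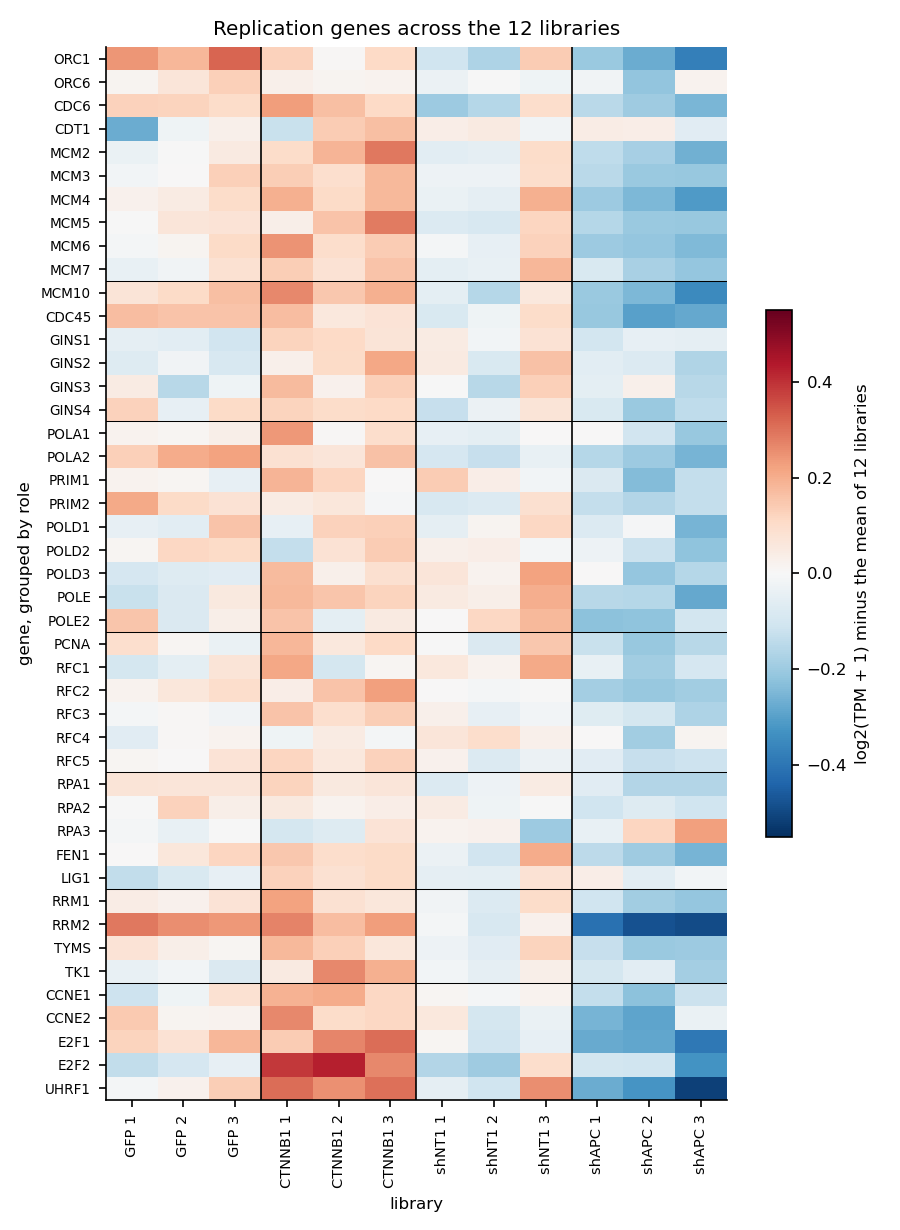
Each row is a gene, grouped by role with horizontal lines, and each column a library; colour gives log2(TPM + 1) minus the gene's mean over the 12 libraries. The shAPC columns are mostly blue, the CTNNB1 columns mostly red, and shNT1 3 is redder than the other shNT1 columns.

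In the CTNNB1 arm few of the replication genes passed the test. By limma, 8 of the 45 rose (17.8%) and none fell, where 16.3% of the 11624 genes tested rose, so the share is near the background (7.16% fell). The genes that rose were E2F2, UHRF1, TK1, POLE, MCM2, LIG1, GINS1 and GINS2. The median log2 fold change of the 45 was 0.09, beside 0.06 for all genes tested, and 36 of the 45 values were positive (29 under median-ratio scaling). The groups did not overlap for 12 genes in the upward direction, where 30.2% of all genes tested did not, and for 2 (ORC1 and PRIM2) in the downward direction, where 13.0% did not. Under median-ratio scaling the median was 0.03, 2 genes rose (E2F2 and UHRF1) and 1 fell (ORC1), beside 11.6% of all genes higher and 11.9% lower. Left out in turn, GFP replicate 1 and GFP replicate 2 each reduced the calls among the 45 to E2F2 alone. Calls over all genes tested, in either direction, went from 2730 to 1617 and 1499 there. Among the 45 the count was 4 without GFP replicate 3, 13 without CTNNB1 replicate 1, 2 without CTNNB1 replicate 2 and 5 without CTNNB1 replicate 3. Those omissions gave 1705, 3190, 1760 and 2952 calls over all genes.

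In the shAPC arm the replication genes that passed all fell. By limma, 14 of the 45 fell (31.1%) and none rose, where 14.9% of the 11834 genes tested fell and 7.24% rose. They were RRM2, UHRF1, POLE, MCM4, POLE2, E2F1, CDC45, MCM6, RFC1, PRIM1, MCM3, RFC2, MCM2 and TYMS. The median log2 fold change was -0.17, beside -0.04 for all genes tested, and 44 of the 45 values were negative, RPA3 being the exception. For 31 of the 45 genes every shAPC library was below every shNT1 library, where 26.4% of all genes tested did so. Under median-ratio scaling 11 genes fell and none rose, beside 12.6% of all genes lower, with a median of -0.12. Without shNT1 replicate 3, the library that stood apart, 10 genes fell and the median was -0.13. The count was 9 without shNT1 replicate 1, 6 without shAPC replicate 2 and 5 without shAPC replicate 3. Calls over all genes tested, in either direction, went from 2615 to 1933, 1646 and 1484 there. RRM2 and E2F1 were called in each of the 6 omissions. RFC1 and TYMS lost the call in 5 of the 6, PRIM1 in 4, and MCM3 and RFC2 in 3.

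**Figure D3:**
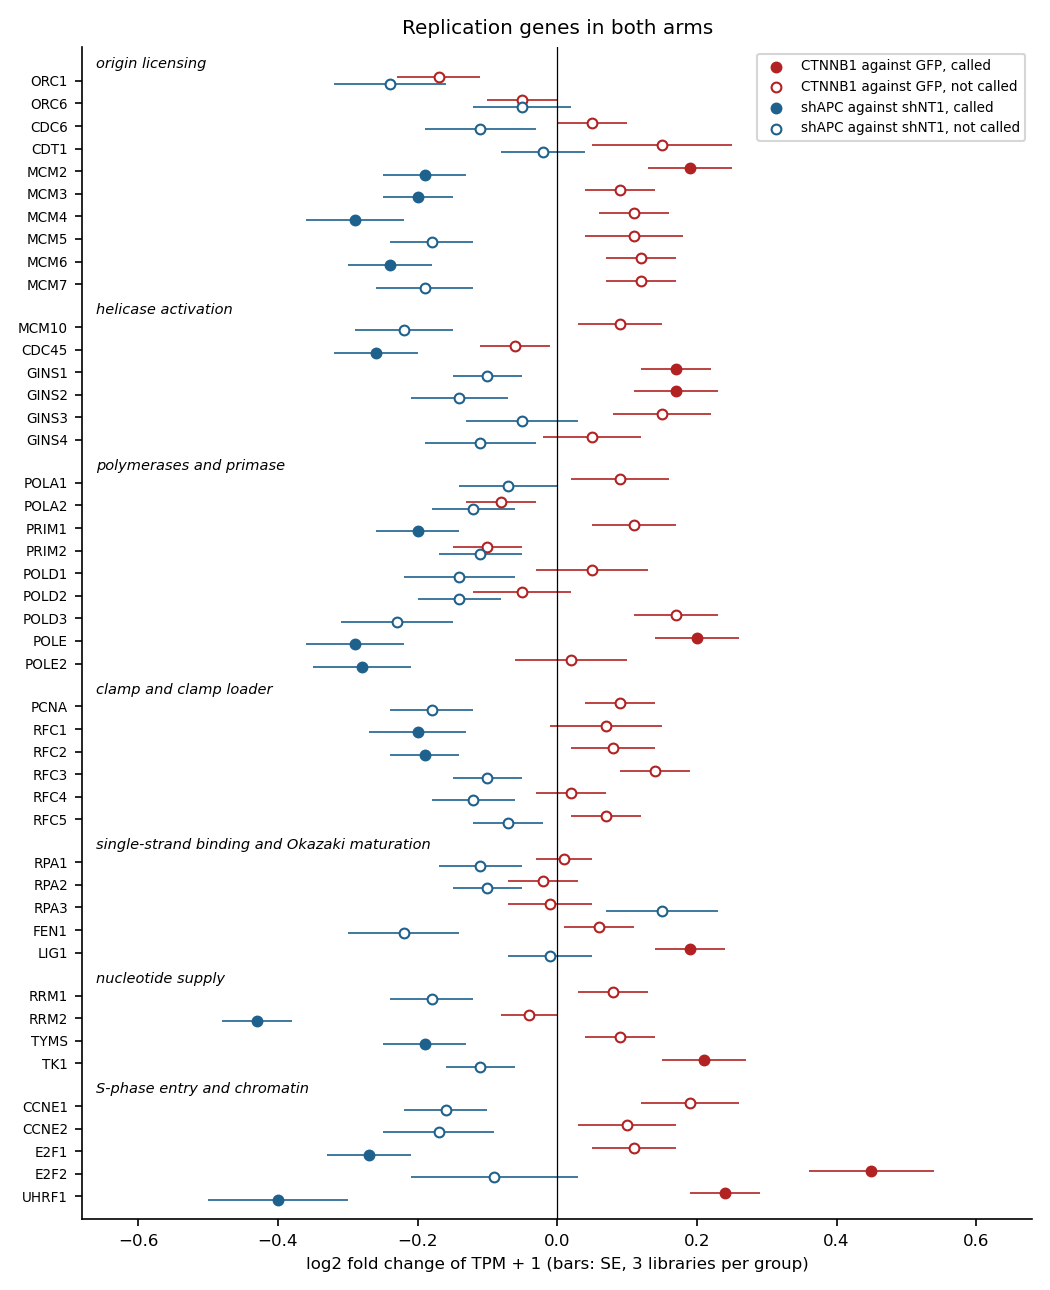
Log2 fold change of TPM + 1 (horizontal axis) with its SE for each of the 45 genes by role, CTNNB1 against GFP in red and shAPC against shNT1 in blue; filled points passed a limma adjusted p of 0.05. MCM2, POLE and UHRF1 are filled on both sides of 0, and only RPA3 lies right of 0 in blue.

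The difference between the arms was then tested directly, by subtracting the shAPC effect from that of CTNNB1 in a fit of all 12 libraries. It was positive and past the threshold for 22 of the 45 genes (48.9%) and negative for none, where 13.3% of the 11741 genes tested were called positive and 2.76% negative (16.1% in either direction). The median difference was 0.27 on the log2 scale, beside 0.11 for all genes. The difference was positive for 44 of the 45 genes, and for 38 under median-ratio scaling. Median-ratio scaling took the median of all genes to 0.00 and that of the 45 to 0.16, and 9 of the 45 were then called, all positive, where 6.75% of all genes were positive and 5.54% negative. Of the 22, MCM2, MCM4, MCM6, POLD3, POLE, RRM2 and UHRF1 were called at the 0.05 threshold under every alternative run, each left-out library included. The count was 14 without GFP replicate 1, 11 without GFP replicate 2 and 17 without shNT1 replicate 3. Calls over all genes tested, in either direction, went from 1885 to 1092, 995 and 1307 there. For 7 genes (MCM7, MCM10, POLD3, PCNA, RFC3, RRM1 and CCNE1) the difference was called although neither arm alone was, and of these POLD3 alone was also called under median-ratio scaling. Across the 45 genes the log2 fold changes of the arms were uncorrelated as a description (Pearson 0.00, Spearman 0.00). The genes highest in the CTNNB1 arm were not in general those lowest in the shAPC arm. The points share libraries within each arm and are not independent.

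**Figure D4:**
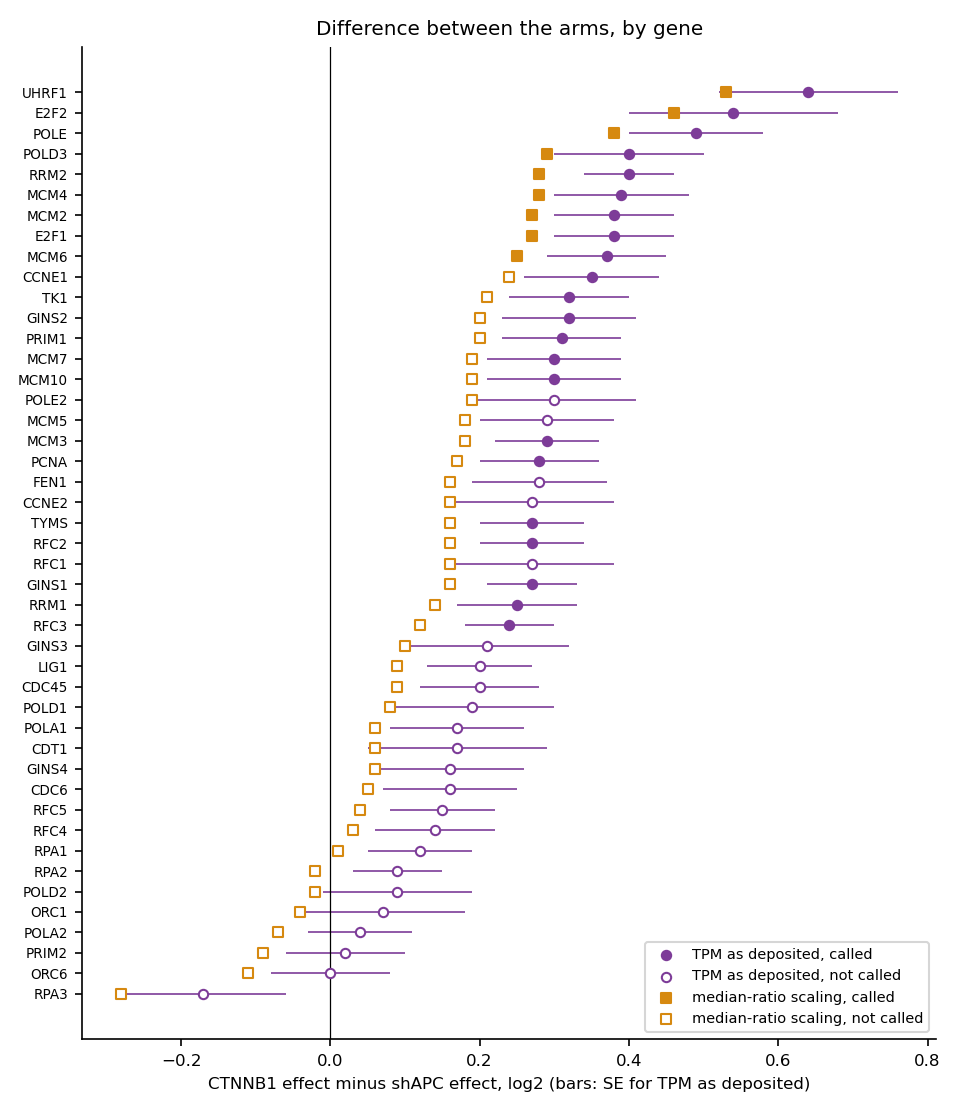
Difference of the log2 fold changes, CTNNB1 arm minus shAPC arm (horizontal axis), for the 45 genes in order, with TPM as deposited (circles, bars SE) and with median-ratio scaling (squares); filled symbols passed a limma adjusted p of 0.05. The squares lie about 0.11 to the left of the circles, and UHRF1, E2F2 and POLE lead under both.

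Of the licensing genes, 1 of 10 rose in the CTNNB1 arm and 4 fell in the shAPC arm. The difference was called positive for 5. Of all genes tested, 16.3%, 14.9% and 13.3% were called in these directions. The medians were 0.11, -0.19 and 0.29 on the log2 scale, beside 0.06, -0.04 and 0.11 for all genes. Under median-ratio scaling the difference was called positive for 3 of the 10, beside 6.75% of all genes. For TPM as deposited, all calls among the licensing genes were in the MCM ring. MCM2, a subunit of the ring, was at 149, 152 and 158 TPM in the GFP libraries and 164, 174 and 187 TPM in the CTNNB1 libraries. It was at 147, 148 and 164 TPM in shNT1 and 139, 134 and 127 TPM in shAPC. The groups did not overlap in either arm, and MCM2 rose by 0.19 (SE 0.06, limma adjusted p = 0.035) in the CTNNB1 arm and fell by 0.19 (SE 0.06, limma adjusted p = 0.043) in the shAPC arm. Its rise was not called under median-ratio scaling (0.13, limma adjusted p = 0.19) or quantile normalization. The rise was also not called without the filter on low values or without the variance trend. It lost the call in 5 of the 6 fits that left out a library, with a limma adjusted p of up to 0.13. The fall was not called in any of the 6 fits that left out a library of its arm, the adjusted p there running from 0.055 to 0.15. No other ring subunit passed in the CTNNB1 arm. MCM4 fell in the shAPC arm from 178, 176 and 209 TPM in shNT1 to 159, 154 and 147 TPM in shAPC (-0.29, SE 0.07, limma adjusted p = 0.016). MCM6 fell there from 157, 153 and 173 TPM in shNT1 to 138, 137 and 134 TPM in shAPC (-0.24, SE 0.06, limma adjusted p = 0.013). MCM3 fell there from 185, 185 and 202 TPM in shNT1 to 170.2, 164 and 163 TPM in shAPC (-0.20, SE 0.05, limma adjusted p = 0.024). None of these groups overlapped, while MCM5 (-0.18, limma adjusted p = 0.076) and MCM7 (-0.19, limma adjusted p = 0.081) did not pass. MCM7 exons overlap those of AP4M1 on the opposite strand over 392 bases, and without a stated strand its reads cannot be told from those of AP4M1 there.

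None of the loaders was called for TPM as deposited. ORC1, singled out after its values were seen and the large subunit of the origin recognition complex, was at 43.2, 41.4 and 45.6 TPM in GFP and 39.8, 36.5 and 39.2 TPM in CTNNB1. It was the only gene of the set to be called lower in the CTNNB1 arm under median-ratio scaling (-0.23, limma adjusted p = 0.013), against -0.17 (adjusted p = 0.066) for TPM as deposited. In the other arm ORC1 went from 33.6, 32.1 and 40.1 TPM in shNT1 to 31.3, 29.9 and 27.7 TPM in shAPC, without overlap. That change was -0.24 (SE 0.08, limma adjusted p = 0.07) and was not called. The difference between the arms for ORC1 was 0.07 (SE 0.11, limma adjusted p = 0.69). CDC6, which brings the MCM ring to origins, went from 99.4, 99.3 and 97.7 TPM in GFP to 107, 102 and 98.4 TPM in CTNNB1 and from 79.1, 81.5 and 97.3 TPM in shNT1 to 82.0, 79.3 and 76.3 TPM in shAPC. CDT1, the other MCM loader, went from 24.4, 29.2 and 30.3 TPM in GFP to 27.2, 32.8 and 33.4 TPM in CTNNB1 and from 30.5, 30.8 and 29.3 TPM in shNT1 to 30.6, 30.5 and 28.5 TPM in shAPC. Neither was called in any comparison, their libraries overlapped within both arms, and the difference between the arms was 0.16 (SE 0.09) for CDC6 and 0.17 (SE 0.12) for CDT1. ORC6 had a difference of 0.00 (SE 0.08).

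Of the genes of helicase activation, 2 of 6 rose in the CTNNB1 arm and 1 fell in the shAPC arm. The difference was called positive for 3. Of all genes tested, 16.3%, 14.9% and 13.3% were called in these directions. The medians were 0.12, -0.13 and 0.24 on the log2 scale, beside 0.06, -0.04 and 0.11 for all genes. Under median-ratio scaling the difference was called positive for 0 of the 6, beside 6.75% of all genes. GINS1, a subunit of the GINS complex, was at 58.4, 58.0 and 56.2 TPM in GFP and 65.8, 65.4 and 63.5 TPM in CTNNB1, a rise of 0.17 (SE 0.05, limma adjusted p = 0.027) with no overlap. GINS2, of the same complex, rose from 100.4, 104 and 99.3 TPM in GFP to 108, 114 and 123 TPM in CTNNB1 (0.17, SE 0.06, limma adjusted p = 0.048), with no overlap, and neither gene was called in the shAPC arm. Neither rise was called under median-ratio scaling (0.11 for each). GINS1 lost the call in 4 of the 6 fits that left out a library, and GINS2 in 5. CDC45 fell in the shAPC arm, from 70.4, 73.5 and 80.2 TPM to 64.5, 60.5 and 61.2 TPM (-0.26, SE 0.06, limma adjusted p = 0.014), and its CTNNB1 value was -0.06 (SE 0.05). GINS3 and GINS4 were called in no comparison. MCM10, which helps to activate the helicase, went from 34.2, 35.1 and 36.6 TPM in GFP to 39.2, 36.2 and 37.4 TPM in CTNNB1 and from 31.2, 29.1 and 33.8 TPM in shNT1 to 28.1, 27.2 and 25.3 TPM in shAPC. Its groups overlapped in the CTNNB1 arm only, and it differed between the arms by 0.30 (SE 0.09, limma adjusted p = 0.034), but was not called under median-ratio scaling.

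Of the polymerase and primase genes, 1 of 9 rose in the CTNNB1 arm and 3 fell in the shAPC arm. The difference was called positive for 3. Of all genes tested, 16.3%, 14.9% and 13.3% were called in these directions. The medians were 0.05, -0.14 and 0.19 on the log2 scale, beside 0.06, -0.04 and 0.11 for all genes. Under median-ratio scaling the difference was called positive for 2 of the 9, beside 6.75% of all genes. POLE, the catalytic subunit of the leading-strand polymerase epsilon, was at 30.1, 31.1 and 34.1 TPM in GFP and 37.4, 36.6 and 35.9 TPM in CTNNB1. In the other arm it went from 34.0, 33.6 and 37.9 TPM in shNT1 to 29.5, 29.4 and 26.9 TPM in shAPC. POLE rose by 0.20 (SE 0.06, limma adjusted p = 0.037) in the CTNNB1 arm and fell by 0.29 (SE 0.07, limma adjusted p = 0.013) in the shAPC arm, with no overlap in either. The rise was 0.14 (limma adjusted p = 0.084) under median-ratio scaling and 0.11 after each library's trend with transcript length was removed, and was called in neither. The call was also lost without the filter on low values, under quantile normalization and without the variance trend. In 3 of the 6 fits that left out a library the rise was not called, with a limma adjusted p of up to 0.15. The fall was called under every alternative that kept all libraries, and its adjusted p was 0.056 without shAPC replicate 3. POLE2, the second subunit of the same enzyme, fell in the shAPC arm by 0.28 (SE 0.07, limma adjusted p = 0.016), from 22.1, 24.01 and 25.1 TPM in shNT1 to 18.7, 18.8 and 20.5 TPM in shAPC with no overlap, and its CTNNB1 value was 0.02 (SE 0.08). PRIM1, the catalytic primase subunit, fell from 94.5, 87.8 and 84.6 TPM in shNT1 to 80.8, 72.5 and 78.2 TPM in shAPC (-0.20, SE 0.06, limma adjusted p = 0.041). The fall of PRIM1 was not called under median-ratio scaling (-0.15, limma adjusted p = 0.114) or quantile normalization. Nor was it called without the filter on low values or without the variance trend. POLD3, an accessory subunit of polymerase delta, went from 32.9, 33.4 and 33.5 TPM in GFP to 39.7, 35.8 and 37.4 TPM in CTNNB1 and from 36.8, 35.6 and 41.1 TPM in shNT1 to 35.2, 30.1 and 31.4 TPM in shAPC. Its groups did not overlap in either arm, yet it passed only in the difference (0.40, SE 0.10, limma adjusted p = 0.015). POLA1, POLA2, PRIM2, POLD1 and POLD2 were called in no comparison, with shAPC values between -0.14 and -0.07.

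Of the clamp and clamp loader genes, 0 of 6 rose in the CTNNB1 arm and 2 fell in the shAPC arm. The difference was called positive for 3. Of all genes tested, 16.3%, 14.9% and 13.3% were called in these directions. The medians were 0.08, -0.15 and 0.25 on the log2 scale, beside 0.06, -0.04 and 0.11 for all genes. Under median-ratio scaling the difference was called positive for 0 of the 6, beside 6.75% of all genes. PCNA, the clamp, was the most abundant gene of the set. Its libraries were at 653, 618.1 and 598 TPM in GFP, 696, 638 and 662 TPM in CTNNB1, 612, 581 and 679.8 TPM in shNT1 and 564, 530.0 and 552 TPM in shAPC. The shAPC libraries lay below the shNT1 libraries and the GFP and CTNNB1 libraries overlapped, and neither change was called (-0.18, limma adjusted p = 0.062, and 0.09, limma adjusted p = 0.19). The difference between the arms was 0.28 (SE 0.08, limma adjusted p = 0.036), which median-ratio scaling took to 0.17 and below the call. GENCODE names 3 PCNA pseudogenes, and how shared reads were assigned is not given in the sources used here. Of the clamp loader, RFC2 fell in the shAPC arm from 92.8, 92.0 and 92.6 TPM to 81.2, 80.0 and 80.9 TPM. The shNT1 and shAPC values of RFC2 formed tight, separate groups (-0.19, SE 0.05, limma adjusted p = 0.015). RFC1, the large subunit, fell from 75.4, 73.6 and 83.8 TPM in shNT1 to 70.4, 63.3 and 67.9 TPM in shAPC (-0.20, SE 0.07, limma adjusted p = 0.048). The fall of RFC1 was not called under median-ratio scaling (-0.15, limma adjusted p = 0.067) or quantile normalization. Nor was it called without the filter on low values or without the variance trend. RFC3 passed in the difference alone, and RFC4 and RFC5 in no comparison.

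Of the genes of single-strand binding and Okazaki fragment maturation, 1 of 5 rose in the CTNNB1 arm and 0 fell in the shAPC arm. The difference was called for 0, while 13.3% of all genes tested were called positive. In the arms 16.3% of all genes rose with CTNNB1 and 14.9% fell with shAPC. The medians were 0.01, -0.10 and 0.12 on the log2 scale, beside 0.06, -0.04 and 0.11 for all genes. RPA3, the small subunit of the single-strand binding protein, singled out after its values were seen, was at 62.3, 62.5 and 53.4 TPM in shNT1 and 59.7, 66.9 and 71.9 TPM in shAPC. The groups overlapped, and 0.15 (SE 0.08, limma adjusted p = 0.21) was the only positive value of the set in that arm. RPA1 and RPA2 lay between -0.11 and -0.10 there and were not called. LIG1, the ligase that seals Okazaki fragments, rose in the CTNNB1 arm from 37.8, 39.2 and 40.3 TPM to 45.4, 44.1 and 44.8 TPM (0.19, SE 0.05, limma adjusted p = 0.023). Its libraries did not overlap there, and its shAPC value was -0.01 (SE 0.06). The rise of LIG1 was not called under median-ratio scaling (0.13, limma adjusted p = 0.065) or in 3 of the 6 fits that left out a library. FEN1, the flap endonuclease of the same step, was called in no comparison (0.06 and -0.22, limma adjusted p = 0.41 and 0.064). RPA1, RPA3 and FEN1 have exons that overlap expressed genes on the opposite strand, and GENCODE names 3 RPA2 pseudogenes.

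Of the nucleotide supply genes, 1 of 4 rose in the CTNNB1 arm and 2 fell in the shAPC arm. The difference was called positive for 4. Of all genes tested, 16.3%, 14.9% and 13.3% were called in these directions. The medians were 0.08, -0.18 and 0.30 on the log2 scale, beside 0.06, -0.04 and 0.11 for all genes. Under median-ratio scaling the difference was called positive for 1 of the 4, beside 6.75% of all genes. RRM2, the S-phase-restricted subunit of ribonucleotide reductase, was at 261, 247 and 267 TPM in shNT1 and 197, 188 and 187 TPM in shAPC. It was at 322, 314 and 310.5 TPM in GFP and 318, 295 and 309 TPM in CTNNB1. RRM2 fell by 0.43 in the shAPC arm (SE 0.05, limma adjusted p = 0.00031), a 26.1% lower mean, and stayed uncalled with CTNNB1 (-0.04, SE 0.04, limma adjusted p = 0.57), where the libraries overlapped. The difference between the arms was 0.40 (SE 0.06, limma adjusted p = 0.0013). The fall was called without each library of the arm in turn (log2 fold change between -0.47 and -0.41). Both hairpin groups lay below both open reading frame groups in every library. GENCODE names 3 RRM2 pseudogenes. RRM1, the large subunit, passed only in the difference (0.25, SE 0.08, limma adjusted p = 0.044), with shAPC at -0.18 (limma adjusted p = 0.056). That difference was 0.14 and not called under median-ratio scaling (limma adjusted p = 0.123), and it lost the call in 9 of the 12 fits that left out a library.

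TYMS, which makes thymidylate, was at 255, 249 and 283 TPM in shNT1 and 238, 226 and 226 TPM in shAPC, without overlap. It fell by 0.19 (SE 0.06, limma adjusted p = 0.045), and was not called under median-ratio scaling or in 5 of the 6 fits that left out a library. TYMS exons overlap ENOSF1 on the opposite strand over 967 bases. TK1, the thymidine salvage kinase, rose in the CTNNB1 arm from 206, 209 and 200.2 TPM to 219, 254 and 243 TPM (0.21, SE 0.06, limma adjusted p = 0.025). That rise was not called under median-ratio scaling (0.15, limma adjusted p = 0.16), without the filter on low values or without the variance trend. It lost the call in 5 of the 6 fits that left out a library. The shAPC value of TK1 was -0.11 (SE 0.05, limma adjusted p = 0.18).

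Of the regulators of S-phase entry and chromatin, 2 of 5 rose in the CTNNB1 arm and 2 fell in the shAPC arm. The difference was called positive for 4. Of all genes tested, 16.3%, 14.9% and 13.3% were called in these directions. The medians were 0.19, -0.17 and 0.38 on the log2 scale, beside 0.06, -0.04 and 0.11 for all genes. Under median-ratio scaling the difference was called positive for 3 of the 5, beside 6.75% of all genes. E2F2, an activator of S-phase genes, was at 2.87, 2.98 and 3.12 TPM in GFP and 4.56, 4.71 and 4.10 TPM in CTNNB1. It rose by 0.45 (SE 0.09, limma adjusted p = 0.0053), a 49% higher mean, and was called at the 0.05 threshold under every alternative that tested it, each left-out library included. At this low level the added 1 TPM understates the change, and E2F2 was not tested where a mean of at least 5 TPM was required. In shNT1 (2.80, 2.71 and 3.54 TPM) and shAPC (2.96, 2.94 and 2.38 TPM) its libraries overlapped. E2F1, the better expressed activator, fell in the shAPC arm from 39.2, 36.1 and 37.6 TPM to 31.9, 31.7 and 29.4 TPM (-0.27, SE 0.06, limma adjusted p = 0.01). Its libraries did not overlap there, and the call held at the 0.05 threshold under every alternative run. It went from 42.5, 41.1 and 44.2 TPM in GFP to 43.0, 47.1 and 48.3 TPM in CTNNB1, which overlapped (0.11, SE 0.06, limma adjusted p = 0.21).

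UHRF1, which guides maintenance DNA methylation at the fork, had the largest difference between the arms. Its libraries were at 44.8, 46.0 and 49.7 TPM in GFP, 56.1, 54.0 and 55.9 TPM in CTNNB1, 43.7, 41.9 and 54.2 TPM in shNT1 and 37.2, 35.9 and 31.3 TPM in shAPC. No libraries overlapped within either arm, although shNT1 3 lay far above the other shNT1 libraries. UHRF1 rose by 0.24 (SE 0.05, limma adjusted p = 0.013), fell by 0.40 (SE 0.10, limma adjusted p = 0.016) and differed between the arms by 0.64 (SE 0.12, limma adjusted p = 0.0038). The rise was not called without GFP replicate 1 (adjusted p = 0.066) or GFP replicate 2 (adjusted p = 0.067) by limma, nor the fall without shAPC replicate 3 (adjusted p = 0.064). The rise was also not called in 1 fit of all groups (limma adjusted p = 0.058), nor the fall without the filter on low values (limma adjusted p = 0.071). CCNE1, the cyclin that drives entry into S phase, went from 19.8, 21.1 and 22.9 TPM in GFP to 24.7, 24.9 and 23.3 TPM in CTNNB1 and from 21.6, 21.3 and 21.8 TPM in shNT1 to 19.6, 18.2 and 19.7 TPM in shAPC. Its groups did not overlap in either arm, and it passed only in the difference (0.35, SE 0.09, limma adjusted p = 0.015). That call was lost under median-ratio scaling (0.24, limma adjusted p = 0.055) and quantile normalization (0.24, limma adjusted p = 0.069). Its paralog CCNE2 went from 27.8, 25.4 and 25.5 TPM in GFP to 30.4, 27.0 and 27.3 TPM in CTNNB1 and from 26.2, 23.5 and 24.5 TPM in shNT1 to 20.9, 20.3 and 24.4 TPM in shAPC, with overlap in both arms. It was called in no comparison (difference 0.27, SE 0.11, limma adjusted p = 0.097), and its exons overlap INTS8 on the opposite strand over 1629 bases.

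**Figure D5:**
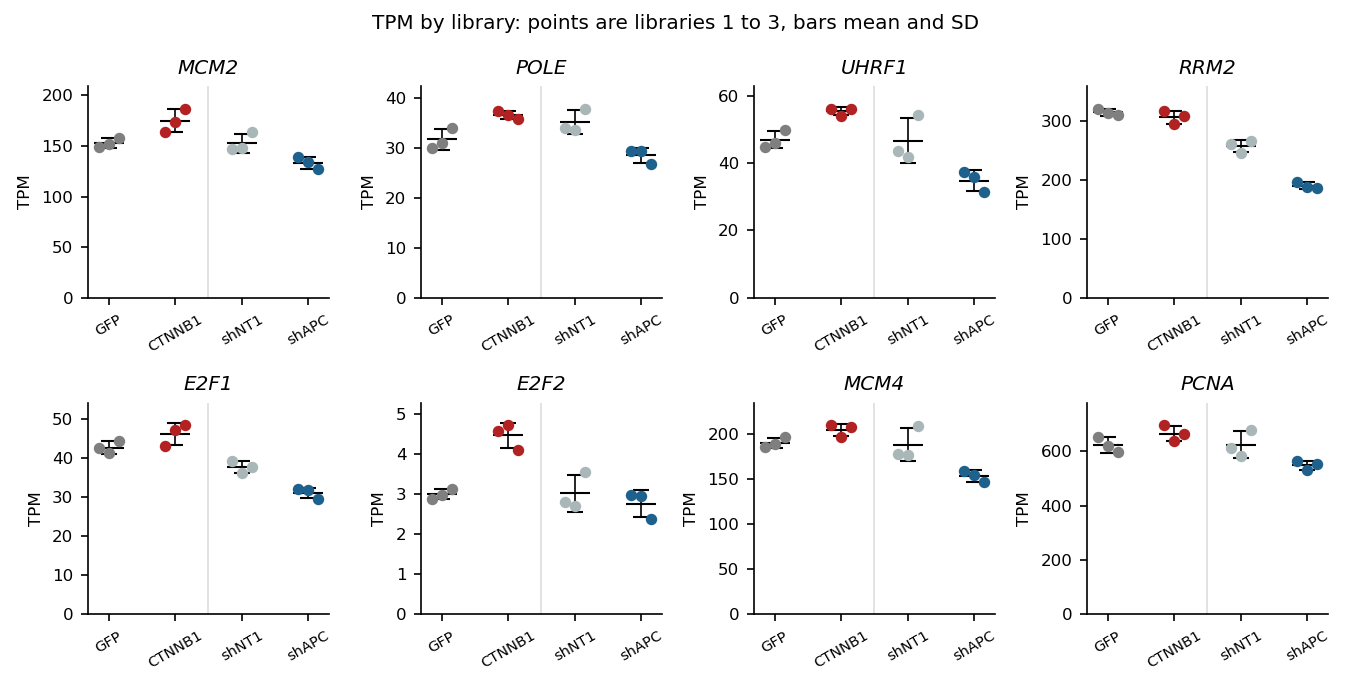
TPM (vertical axis, from 0) of 8 genes in the 12 libraries; points are libraries, bars the mean and SD of 3. MCM2, POLE and UHRF1 are higher in CTNNB1 than GFP and lower in shAPC than shNT1, RRM2 and E2F1 are separated in the hairpin arm, and E2F2 in the open reading frame arm.

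The promoters of these genes were read from RefSeq windows of 300 bases, 250 before to 50 after the annotated start (GRCh38.p14, the assembly also called hg38), which were found for 38 of the 45. The stretches from 170 bases before to 30 after the start are shown for the 3 genes called in opposite directions in the arms (MCM2, POLE and UHRF1) and for RRM2, E2F1 and E2F2, each called in 1 arm at the 0.05 threshold under every alternative that tested it. Capitals mark the E2F motifs TTTCGCGC and TTTGGCGC and the box CCAAT, on either strand.
MCM2: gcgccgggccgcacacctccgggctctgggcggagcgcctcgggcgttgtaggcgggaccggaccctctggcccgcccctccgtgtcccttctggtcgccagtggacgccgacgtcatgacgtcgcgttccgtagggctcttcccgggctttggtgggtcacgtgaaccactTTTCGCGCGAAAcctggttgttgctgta
POLE: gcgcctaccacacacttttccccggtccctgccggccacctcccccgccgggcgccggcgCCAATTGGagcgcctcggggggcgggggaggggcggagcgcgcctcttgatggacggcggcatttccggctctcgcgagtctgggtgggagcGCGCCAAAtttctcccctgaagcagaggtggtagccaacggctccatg
UHRF1: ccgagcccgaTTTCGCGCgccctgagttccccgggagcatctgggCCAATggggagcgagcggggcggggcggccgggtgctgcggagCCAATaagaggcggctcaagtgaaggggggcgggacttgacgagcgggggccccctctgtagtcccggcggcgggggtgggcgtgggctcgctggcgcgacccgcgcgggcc
RRM2: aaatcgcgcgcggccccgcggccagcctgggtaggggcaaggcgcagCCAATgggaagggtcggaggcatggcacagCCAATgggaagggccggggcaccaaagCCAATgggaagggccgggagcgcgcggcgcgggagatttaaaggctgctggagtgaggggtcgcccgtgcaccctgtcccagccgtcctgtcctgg
E2F1: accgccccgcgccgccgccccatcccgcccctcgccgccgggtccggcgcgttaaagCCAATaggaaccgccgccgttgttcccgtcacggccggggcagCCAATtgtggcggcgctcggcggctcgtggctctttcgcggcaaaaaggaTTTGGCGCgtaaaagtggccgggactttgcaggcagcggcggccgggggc
E2F2: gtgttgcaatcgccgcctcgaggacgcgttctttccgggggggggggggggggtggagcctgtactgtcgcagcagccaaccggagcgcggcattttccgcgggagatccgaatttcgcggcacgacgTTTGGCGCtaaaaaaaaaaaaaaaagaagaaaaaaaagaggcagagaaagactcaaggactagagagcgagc
They lie at chr3:127598241-127598440 on the plus strand (MCM2), chr12:132687313-132687512 on the minus strand (POLE), chr19:4909974-4910173 on the plus strand (UHRF1), chr2:10122569-10122768 on the plus strand (RRM2), chr20:33686356-33686555 on the minus strand (E2F1) and chr1:23531204-23531403 on the minus strand (E2F2). UHRF1 has 3 RefSeq windows, of which the one with an E2F motif is shown, and RRM2 has 2.

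MCM2 carries TTTCGCGC on both strands, overlapping, from base 3 and base 7 of the transcript. In POLE, E2F1 and E2F2 the motif TTTGGCGC begins 18, 20 and 42 bases before the start, and in UHRF1 TTTCGCGC begins 160 bases before it. RRM2 has neither E2F motif in the window but holds CCAAT 3 times, 123, 93 and 66 bases before the start. An E2F motif was present for 13 of the 38 genes (34.2%), against 1.4% of the 27305 genes in the RefSeq table. It was present for 7 of the 13 genes that fell in the shAPC arm and have a window, and for 6 of the other 25. CCAAT was found for 60.5% of the 38 and 39.72% of all genes. It was also found for 28 of 48 further replication genes with a window (the list described below) and for 18 of 20 mitosis genes. An E2F motif was present for 12 of those 48 and 2 of those 20. TTTGAA, the core of the CHR element of late cell cycle genes, was found for 1 of the 38 (RRM1), for 18.17% of all genes and for 13 of the 20 mitosis genes with a window. The TCF/LEF motifs CTTTGAT and CTTTGAA, the second of which contains TTTGAA, were in none of the 38 windows and in 8.35% of all genes, which says only that these letters are not in these windows.

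A list of 60 further genes of replication, its checkpoint, chromatin assembly and nucleotide metabolism was read the same way. In the CTNNB1 arm 12 rose (20%) and 3 fell (5.0%), near the 16.3% and 7.16% of all genes tested, and the median of 0.09 stood beside 0.06 for all genes. In the shAPC arm 1 rose (1.67%) and 17 fell (28.3%), where 7.24% and 14.9% of all genes did, and the median of -0.13 stood beside -0.04. Under median-ratio scaling 7 rose (11.7%) and 3 fell (5.0%) in the CTNNB1 arm, beside 11.6% and 11.9% of all genes. In the shAPC arm 4 rose (6.67%) and 17 fell (28.3%) under that scaling, beside 11.5% and 12.6% of all genes. The difference between the arms was called positive for 25 (41.7%) and negative for 2 (3.33%), where 13.3% and 2.76% of all genes were. With median-ratio scaling it was called positive for 11 (18.3%) and negative for 3 (5.0%), beside 6.75% and 5.54% of all genes. SAMHD1, which breaks down deoxynucleotides, rose most in the CTNNB1 arm, from 13.7 ± 0.56 to 18.7 ± 0.82 TPM (0.42, SE 0.06, limma adjusted p = 0.0014). It was at 17.4 ± 0.2 TPM in shNT1 and 17.7 ± 1.0 TPM in shAPC, so GFP was the lowest of the groups. DUT, which keeps uracil out of DNA, rose by 0.32 (limma adjusted p = 0.002), and RNASEH2B, a subunit of the enzyme that removes ribonucleotides from DNA, by 0.28 (limma adjusted p = 0.0073). POLD4, the small subunit of polymerase delta, fell in both arms, by 0.74 (limma adjusted p = 0.00045) and by 0.43 (limma adjusted p = 0.0023). ORC3 and ASF1A each fell by 0.26 in the CTNNB1 arm.

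CDC25A, the phosphatase that activates CDK2 at S-phase entry, fell most in the shAPC arm, from 28.2 ± 1.3 to 17.0 ± 0.31 TPM (SD, n = 3 each; -0.70, SE 0.06, limma adjusted p = 5e-05). It was at 32.9 ± 0.74 and 32.7 ± 1.3 TPM in GFP and CTNNB1, and its difference between the arms was 0.69 (SE 0.07, limma adjusted p = 8.9e-05). RBL1, a pocket protein of the RB family, fell by 0.41 (SE 0.07, limma adjusted p = 0.0023). RRM2B, the ribonucleotide reductase subunit used outside S phase, was the gene of this list that rose in the shAPC arm (0.21, SE 0.06, limma adjusted p = 0.038). It also rose in the CTNNB1 arm (0.26, SE 0.06, limma adjusted p = 0.014), where RRM2 was not called (-0.04, SE 0.04, limma adjusted p = 0.57). Only in the shAPC arm were RRM2B and RRM2 both called, in opposite directions. For comparison, of 25 mitosis genes 2 rose in the CTNNB1 arm (8.0%, beside 16.3% of all genes) and 9 fell in the shAPC arm (36.0%, beside 14.9%), with medians of 0.10 and -0.12. In the difference 8 were called positive (32.0%, beside 13.3%). With median-ratio scaling 0 of the mitosis genes rose and 1 fell (4.0%) in the CTNNB1 arm, beside 11.6% and 11.9% of all genes. In the shAPC arm 8 fell (32.0%) under that scaling, beside 12.6% of all genes. Whether the replication and mitosis lists differ was not tested.

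The authors' deposited tables hold a limma fit of each arm, whose model is not stated. In the authors' deposited table for CTNNB1, LIG1 and E2F2 were higher and ORC1 and CDC45 lower among the 45 at an adjusted p under 0.05, where 9.37% of the genes tested here were higher and 10.4% lower. The median log2 fold change of the 45 in the authors' deposited table was 0.02. Of the 8 genes called higher here, only 2 (LIG1 and E2F2) were called higher in the authors' deposited table. MCM2, POLE and UHRF1 were not (limma adjusted p = 0.45, 0.12 and 0.051 in the authors' deposited table). In the authors' deposited table for APC, 9 of the 45 were lower and none higher, where 11.2% of the genes tested here were lower and 7.94% higher. Those 9 (MCM2, MCM3, MCM4, MCM6, CDC45, POLE, RFC2, RRM2 and E2F1) were all among the 14 called here, and the median in the authors' deposited table was -0.14. UHRF1 was not called lower in the authors' deposited table (limma adjusted p = 0.075).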

How the data were processed

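The authors deposited TPM per gene and library, with 25528 rows, made with STAR 2.7.3a on hg38, per the submitters' processing notes; the annotation, quantifier and filters are not given in the sources used here. The authors' deposited limma tables hold log2 fold changes and mean log2 expression, p-values and adjusted p-values, and score columns (t and log-odds), which were not used. Library depth is unknown. The labels name an mRNA kit and no strandedness.

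Each arm was fitted with limma 3.58.1 (R 4.3.3) on log2(TPM + 1), over all genes averaging 1 TPM or more in its 6 libraries, with a variance trend; the difference between arms used all 12. Fold changes are on the log2(TPM + 1) scale. Calls are Benjamini-Hochberg adjusted p under 0.05 over all genes tested. All 45 members passed the filter. Median-ratio scaling, quantile normalization, other pseudocounts and filters, no trend, 1 fit, a replicate block and left-out libraries were alternatives; a transcript length correction (GENCODE v29, 95.5% of the genes tested for the difference matched) was added after seeing the data. Fits were tested on simulated data with independent errors for each gene. The simulation added no shift shared by the genes of a library, so it did not test the fits under such shifts. Row names that are dates (27) were kept and not named.

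The members and lists were chosen with earlier results of these data known. Values per library were given for called members (at most 14 per comparison by size) and 10 core members; for the list of 60 further genes, the 3 largest called rises and falls per arm. Other members' values were chosen after they were seen. Samples were grouped by their labels.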

Additional observations from a re-analysis of the deposited data

Results flagged for a closer look

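For 22 of the 45 genes (48.9%) the CTNNB1 effect minus the shAPC effect was called positive by limma in the fit of all 12 libraries. Of all genes tested 13.3% were called positive, and their median difference was 0.11. Under median-ratio scaling 9 of the 45 were called positive, beside 6.75% of all genes. The difference is signed, so a positive value does not say which effect was larger in size. The difference on the log2 scale was 0.38 for MCM2, 0.29 for MCM3, 0.39 for MCM4, 0.37 for MCM6, 0.30 for MCM7 and 0.30 for MCM10. It was 0.27 for GINS1, 0.32 for GINS2, 0.31 for PRIM1, 0.40 for POLD3 and 0.49 for POLE. It was 0.28 for PCNA, 0.27 for RFC2, 0.24 for RFC3, 0.25 for RRM1, 0.40 for RRM2, 0.27 for TYMS and 0.32 for TK1. It was 0.35 for CCNE1, 0.38 for E2F1, 0.54 for E2F2 and 0.64 for UHRF1. The arms differ in vector, collection day and doxycycline, which cannot be told apart from the difference between the perturbations.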

How the results depend on the processing

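The counts that follow are of all members called, whichever they are, unless all genes tested are named. For the CTNNB1 arm, with 8, they were 5 without a filter on low values, 3 (E2F2 and UHRF1 higher, ORC1 lower) under median-ratio scaling, 4 without the variance trend and 1 at an adjusted threshold of 0.01, and omitting each library in turn gave 1 to 13. Calls over all genes tested went from 2730 to 2257, 2729, 2422 and 1253 in these settings. With a library left out they ran from 1499 to 3190. For the shAPC arm, with 14, the counts were 8 without the filter, 8 under quantile normalization, 9 without the trend and 1 at 0.01, and 5 to 16 with a library left out. All genes tested gave 2615 calls there, and 1929, 2712, 2198 and 1151 in these settings. With a library left out they gave 1484 to 2252. Other settings gave 11 of 45 members in the shAPC arm under median-ratio scaling and 20 of 45 in 1 fit of all 4 groups. Where a mean of at least 5 TPM was required, 20 of 44 were called. All genes tested gave 2854, 3008 and 2505 calls in those settings. For the difference, with 22 members called, the counts were 9 under median-ratio scaling, 13 under quantile normalization and 7 at 0.01, and 11 to 24 with a library left out. All genes tested gave 1885 calls in the difference, and 1443, 1402 and 628 in these settings. With a library left out they gave 995 to 2143. The median of the 45 in the CTNNB1 arm was 0.03 under median-ratio scaling and 0.06 to 0.11 with a library left out; in the shAPC arm it was -0.12 under median-ratio scaling, -0.11 under quantile normalization and -0.20 to -0.13 with a library left out. Positive values numbered 36 of 45 in the CTNNB1 arm, 1 in the shAPC arm and 44 in the difference, against 29, 3 and 38 under median-ratio scaling and 32, 5 and 39 under quantile normalization. Under median-ratio scaling the printed values of POLE2 (-0.04) and FEN1 (-0.01) in the CTNNB1 arm and of LIG1 (0.04) in the shAPC arm changed sign. The sign also turned for CDC6 in the CTNNB1 arm under median-ratio scaling (-0.01), and for CDT1 in the shAPC arm under median-ratio scaling (0.03), quantile normalization (0.05) and with single libraries left out (-0.04 to 0.01, positive without shAPC replicate 3); none of the values named here as changing sign was called. The causes were not tested. With the replicate number as a block, 9, 8 and 17 of the 45 genes were called in the CTNNB1 arm, the shAPC arm and the difference. All genes tested gave 2895, 1767 and 1145 calls with the block. Same-numbered libraries correlated at 0.21, 0.08 and 0.12 in the CTNNB1 arm, where the other pairs ran from -0.19 to 0.08, and at -0.14, 0.00 and -0.21 in the shAPC arm, where they ran from -0.13 to 0.21. As not every same-numbered pair exceeded 0.1 and the labels tie the numbers to nothing shared, the numbers were not treated as pairs; whether the CTNNB1 arm is paired was not settled. Removing each library's trend with transcript length, chosen after seeing the data, gave 9, 16 and 20 of the 45. Over all genes tested it gave 2758, 2687 and 1659 calls. Depth is unknown, so counting error could not be given.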
